A study of Mus musculus with 8 samples.

Results

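A group of 10 genes of the Hippo-YAP/TEAD pathway was followed in glomeruli of mice with and without the tetraspanin Cd151. They were chosen by symbol: Ankrd1 because the genotype comparison of these same arrays had placed it among the probes called higher in Cd151-/- mice, and Ctgf, Cyr61, Amotl2, Axl, Yap1, Wwtr1, Tead1, Lats1 and Lats2 because they belong to the same pathway. Of the 10 members, 8 had a probe among the 18120 gene symbols of the array, with 11 probes between them. Ankrd1, Ctgf, Cyr61, Amotl2, Axl and Yap1 each had a probe detected on all 8 arrays, which makes 6 members with a measured level. Tead1 and Lats2 had 1 probe each, detected on no array, and Wwtr1 and Lats1 had none. The probes listed as Taz belong to tafazzin in the gene table and were not taken for Wwtr1, whose protein shares that name.

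Glomeruli came from 3-week-old male mice of the inbred strain FVB/N, 4 of them Cd151+/+ and 4 Cd151-/-, with 1 mouse on each array and the mice numbered 1 to 4 within a genotype. Cd151-/- mice lack Cd151 in the germ line, so the loss is present in all glomerular cell types and is not confined to podocytes. The kidneys had been perfused with magnetic beads, minced and digested warm with collagenase, and glomeruli were then held back on a magnet. Cd151 itself was detected by its 3 probes on all 4 Cd151+/+ arrays and on none of the Cd151-/- arrays, a difference of at least 87.8-fold to at least 523-fold.

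YAP1 and its relative TAZ, the product of Wwtr1, are coactivators that cannot bind DNA on their own and act through the TEAD factors. The kinases LATS1 and LATS2, the last step of the Hippo cascade, phosphorylate them and keep them out of the nucleus, and cell stretch, spreading and adhesion to the matrix favour their nuclear entry. In podocytes, the epithelial cells that wrap the glomerular capillaries and bear the filtration pressure, YAP has been linked to cell survival. Ankrd1, Ctgf, Cyr61, Amotl2 and Axl are widely used as readouts of YAP and TAZ activity.

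TEAD factors recognise the letters GGAATG, so the 250 bases before annotated starts of the members were searched for them on both strands. RefSeq windows of build GRCm38.p6 were held for 8 of the 10 members, not for Ctgf (now Ccn2) or Tead1. The letters stood in the windows of 6 of these 8 genes and of 12.6% of all 32851 windows searched. Among 10 other YAP/TAZ target genes with windows, 1 held them (Crim1). The windows of Ankrd1 and of Cyr61 (now Ccn1), both on the minus strand, are shown whole. Differences by genotype for Ankrd1 and by array set for Cyr61 are described below. GGAATG or its reverse complement is in capitals.
Ankrd1, chr19:36119845-36120094: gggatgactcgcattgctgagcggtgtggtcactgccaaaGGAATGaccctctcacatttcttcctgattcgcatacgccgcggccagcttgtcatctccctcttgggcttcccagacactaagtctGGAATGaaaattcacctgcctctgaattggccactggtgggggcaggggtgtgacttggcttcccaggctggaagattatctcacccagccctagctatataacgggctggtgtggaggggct
Cyr61, chr3:145649986-145650235: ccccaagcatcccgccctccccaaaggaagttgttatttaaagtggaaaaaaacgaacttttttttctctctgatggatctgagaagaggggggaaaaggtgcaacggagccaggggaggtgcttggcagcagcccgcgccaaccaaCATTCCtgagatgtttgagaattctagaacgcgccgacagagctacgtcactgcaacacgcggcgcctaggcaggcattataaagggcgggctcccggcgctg
Ankrd1 held 2 matches, beginning 210 and 123 bases before the start, and Cyr61 held 1, beginning 103 bases before it. For Amotl2 (plus strand), Axl and Yap1 (both minus strand) the match is shown with 12 bases on each side, to compare the letters around it.
Amotl2, chr9:102717727-102717756: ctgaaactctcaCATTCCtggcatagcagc
Axl, chr7:25788949-25788978: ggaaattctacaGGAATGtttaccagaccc
Yap1, chr9:8004720-8004749: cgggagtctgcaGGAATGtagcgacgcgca
These matches began 65, 233 and 141 bases before the start that each window precedes. Each of these starts lies inside the annotated span of its gene. The Amotl2 match is itself within the span, which begins at 102717091. Those of Axl and Yap1 lie before their spans, which begin, on the minus strand, at 25788924 and 8004638. The window of Wwtr1 held a match as well, and those of Lats1 and Lats2 did not. No member window held the letters TGACTCA or TGAGTCA of the AP-1 factors, which 4.46% of all windows hold, or the CArG box of serum response factor, which 1.47% hold. The sequences are those of the reference strain and not of FVB/N, and a match was not taken as a bound site.

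Ankrd1 encodes an ankyrin repeat protein of heart and skeletal muscle that is found in the nucleus and at the sarcomere and is induced by stretch and injury. The bead signal of its brighter probe, before normalisation, was 350, 275, 566 and 742 in Cd151+/+ mice 1 to 4 and 3342, 2147, 427 and 945 in Cd151-/- mice 1 to 4. After background correction and normalisation the log2 signals were 9.37, 9.04, 8.77 and 8.65 in Cd151+/+ mice and 10.88, 10.24, 9.57 and 10.53 in Cd151-/- mice. All 4 Cd151-/- mice lay above all 4 Cd151+/+ mice, with Cd151-/- mouse 3 nearest to them. The group means were 8.96 ± 0.32 (SD, n = 4) and 10.30 ± 0.55 (SD, n = 4), a difference of 1.35 on the log2 scale with a standard error of 0.30 from the limma fit, or 2.54-fold. Because this contrast had chosen Ankrd1, the difference is given as a description, without a test. As in any bulk RNA, a change in the number of cells of a type and a change in the RNA per cell cannot be told apart, for Ankrd1 or for the other members.

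**Figure D1:**
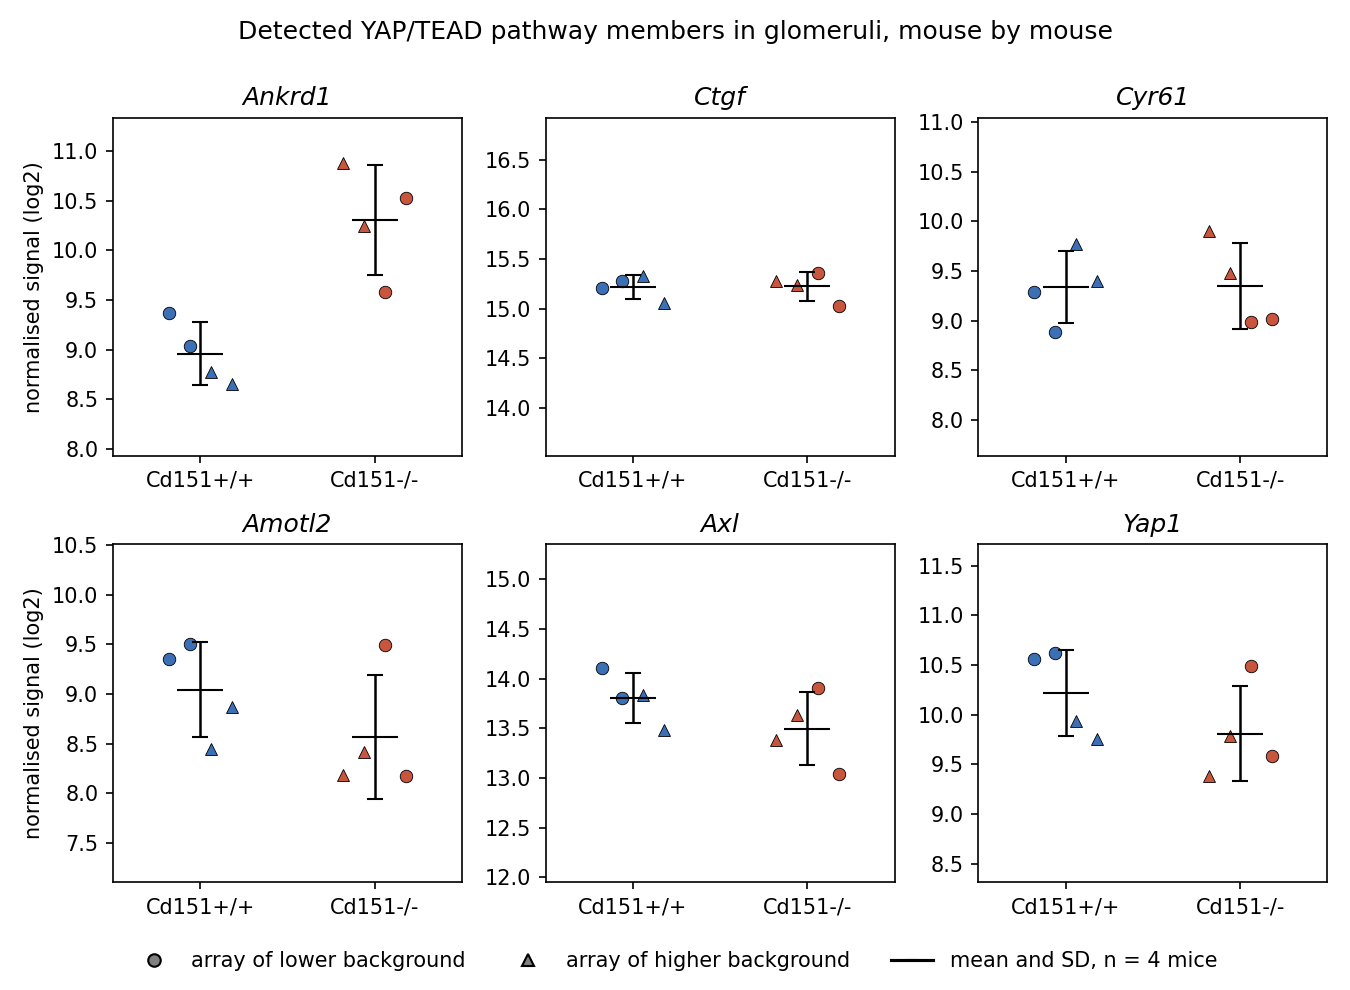
Normalised signal (log2, vertical axis) of the 6 detected members in each Cd151+/+ and Cd151-/- mouse, with circles for arrays of lower background, triangles for arrays of higher background and bars for mean and SD of 4 mice. The Ankrd1 signals of Cd151-/- mice, 9.57 to 10.88, all lie above those of Cd151+/+ mice, 8.65 to 9.37, and the groups overlap for the other 5 members.

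In the SAM analysis, which ranks probes by a moderated difference, Ankrd1 stood at rank 4 of the probes higher in Cd151-/- mice with a score of 2.67. The 6 probes called higher at a false discovery rate under 0.2 were those of Spon2, Gdnf, Mmp10, Ankrd1, Slc22a8 and Calca, and they were 0.0401% of the 14967 probes tested. The last of them, Calca, had a score of 2.65, and the first left out, Ccdc68, had 2.42. Thus 1 of the 6 measured members, Ankrd1, was among the called probes, and such a call is why Ankrd1 was selected.

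The second Ankrd1 probe was dim. Its log2 signals were 5.37, 5.39, 5.08 and 4.70 in Cd151+/+ mice and 5.85, 5.91, 5.16 and 5.27 in Cd151-/- mice. It was detected in none of the Cd151+/+ mice and in Cd151-/- mice 1 and 2, both on arrays of higher background as described below. With Cd151+/+ signals raised to at least the lowest detected signal of their array, the Cd151-/- mean was 1.12-fold higher. That mean includes the Cd151-/- mice where the probe was undetected, so the size of the difference is left unmeasured by this probe. On the arrays of lower background this probe was detected in no mouse and differed by -0.17, and on those of higher background by 0.99. Averaging both probes gave a difference of 0.88 for Ankrd1 in place of 1.35.

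Split at the median of their background, the arrays formed 2 sets of 4. Cd151+/+ mice 1 and 2 together with mice 3 and 4 of the Cd151-/- genotype had backgrounds of 59.0 to 69.5 and the other 4 had 123 to 135, so each set held 2 mice of each genotype. What separates the sets is not given in the sources used here. By its brighter probe Ankrd1 was higher in Cd151-/- mice within both, by 0.85 on the log2 scale on the arrays of lower background and by 1.84 on those of higher background. Whether these sizes differ was not tested. Ankrd1 did not stand apart between the sets, with means of 9.63 and 9.64 and a difference of 0.01 (SE 0.29). In the set of lower background the highest Cd151+/+ signal was 9.37 and the lowest Cd151-/- signal 9.57, so the gap between the genotypes was narrow there.

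**Figure D2:**
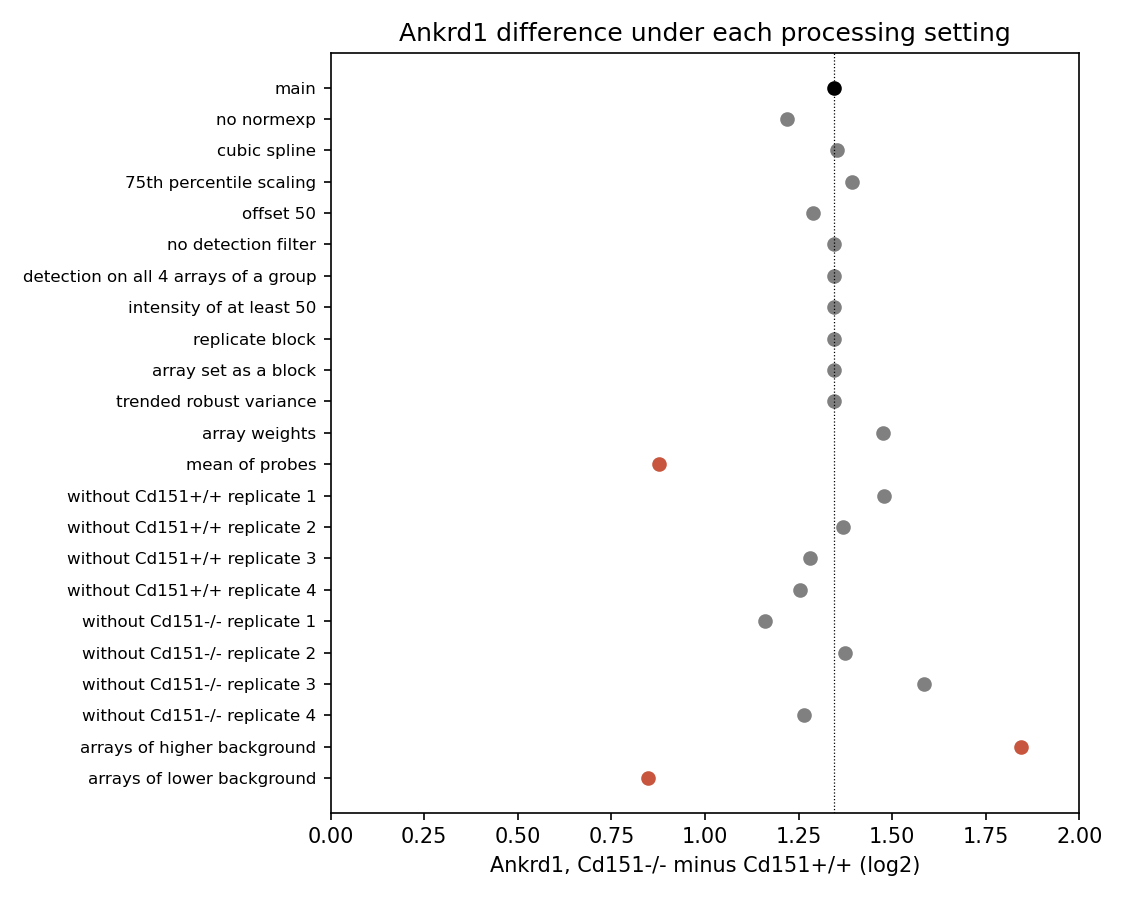
Difference in Ankrd1 signal between Cd151-/- and Cd151+/+ mice (log2, horizontal axis) under each processing setting, with the main setting in black, settings that moved it by less than the SD between mice in grey and those that moved it further in red. The difference lies above 0 under every setting, from 0.85 on the arrays of lower background to 1.84 on those of higher background.

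Ctgf and Cyr61 encode secreted proteins of the CCN family that bind integrins and matrix and are among the best known YAP/TEAD targets. Ctgf gave log2 signals of 15.21, 15.28, 15.33 and 15.06 in Cd151+/+ mice and 15.28, 15.23, 15.36 and 15.02 in Cd151-/- mice. The groups covered the same range, and the difference was 0.01 (SE 0.19), with a 95% interval of -0.42 to 0.43, or 0.749-fold to 1.35-fold. Ctgf was among the brightest probes of each array, with 4 to 15 probes above it and bead signals of 20777 to 57530 against array maxima of 32225 to 63790. Whether a signal so near the top of the scale compressed a difference was not tested. Under scaling to the 75th percentile, which moved the median of all probes to -0.07, the Ctgf difference was -0.15.

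Cyr61 gave 9.29, 8.88, 9.77 and 9.40 in Cd151+/+ mice and 9.90, 9.48, 8.99 and 9.01 in Cd151-/- mice with its brightest probe. The genotypes overlapped over almost their whole range, and their means of 9.34 ± 0.36 (SD, n = 4) and 9.34 ± 0.43 (SD, n = 4) differed by 0.01 (SE 0.28, 95% interval -0.60 to 0.62). A second Cyr61 probe, detected in 4 Cd151+/+ and 2 Cd151-/- mice, differed by -0.11 (SE 0.58) between the genotypes, and the third was detected in no mouse.

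Cyr61 did differ between the array sets. The brightest probe read 9.40 to 9.90 on the 4 arrays of higher background and 8.88 to 9.29 on the 4 of lower background, so the sets did not overlap whatever the genotype. The difference was 0.59 (SE 0.18), with an adjusted p of 0.0421 for the array set in a limma fit that also held genotype, with Benjamini-Hochberg adjustment over all probes. The second Cyr61 probe read 6.33, 7.26, 7.25 and 7.13 on the arrays of higher background and 5.50, 5.74, 5.11 and 4.91 on the others, a difference of 1.68 (SE 0.27, limma adjusted p = 0.00350). Leaving out any 1 of 7 of the 8 mice raised the adjusted p of the brightest probe above 0.05, up to 0.134, and without Cd151+/+ mouse 4 it was 0.0383. Array set passed the threshold for 1 of the 6 members, Cyr61, and for 3579 of all 14967 probes, 23.9%. With so many probes passing, nothing particular to Cyr61 or to the members is read from this. A difference between the mice and a difference between the arrays of the 2 sets cannot be told apart.

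**Figure D3:**
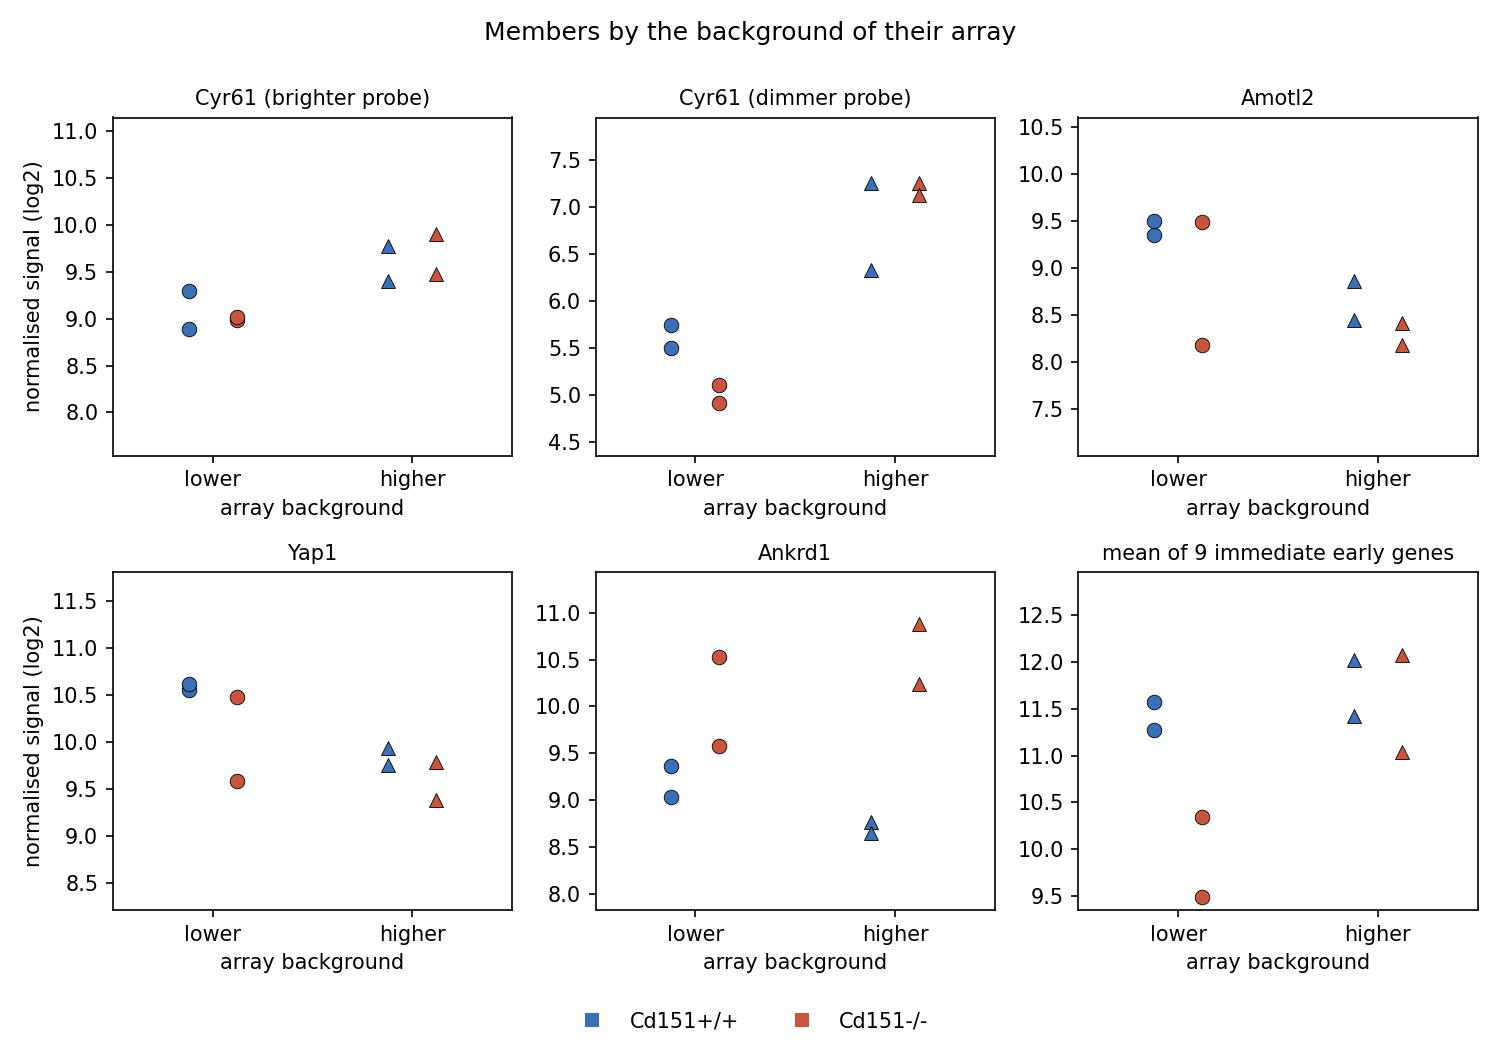
Normalised signal (log2, vertical axis) of both detected Cyr61 probes, Amotl2, Yap1, Ankrd1 and the mean of 9 immediate early genes on arrays of lower and higher background, with 1 point per mouse, Cd151+/+ in blue and Cd151-/- in red. Both Cyr61 probes separate by set (9.40 to 9.90 against 8.88 to 9.29 for the brighter), while Ankrd1 separates by genotype within each set.

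Amotl2 encodes an angiomotin family protein that binds YAP and holds it in the cytoplasm, and its gene is itself a YAP target. Its log2 signals were 9.35, 9.50, 8.45 and 8.86 in Cd151+/+ mice and 8.18, 8.42, 9.49 and 8.18 in Cd151-/- mice. Cd151-/- mouse 3 lay with the 2 highest Cd151+/+ mice, and the other 3 Cd151-/- mice lay below every Cd151+/+ mouse. The means were 9.04 ± 0.48 (SD, n = 4) and 8.57 ± 0.63 (SD, n = 4), a difference of -0.47 (SE 0.34, 95% interval -1.23 to 0.28). Without Cd151-/- mouse 3 the difference was -0.78. By array set Amotl2 differed by -0.65 (SE 0.27, limma adjusted p = 0.105), which did not pass the threshold.

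Axl encodes a receptor tyrosine kinase for the ligand Gas6. Its log2 signals were 14.10, 13.81, 13.84 and 13.48 in Cd151+/+ mice and 13.39, 13.64, 13.91 and 13.05 in Cd151-/- mice. The groups overlapped, with Cd151-/- mouse 3 again the highest of its genotype and above 3 of the 4 Cd151+/+ mice. The difference was -0.31 (SE 0.24, 95% interval -0.85 to 0.23).

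Yap1, the coactivator itself, gave 10.56, 10.62, 9.93 and 9.75 in Cd151+/+ mice and 9.38, 9.79, 10.49 and 9.58 in Cd151-/- mice. Cd151-/- mouse 3 once more lay near Cd151+/+ mice 1 and 2, mouse 2 lay between Cd151+/+ mice 3 and 4, and mice 1 and 4 lay below all Cd151+/+ mice. The means were 10.22 ± 0.44 (SD, n = 4) and 9.81 ± 0.48 (SD, n = 4), a difference of -0.41 (SE 0.30, 95% interval -1.07 to 0.25). Without Cd151-/- mouse 3 it was -0.63. By array set Yap1 differed by -0.60 (SE 0.22, limma adjusted p = 0.0754), in the direction opposite to Cyr61. These are RNA levels, and the phosphorylation and location that set YAP activity were not measured.

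Tead1, a DNA-binding partner of YAP, had mean log2 signals of 4.77 ± 0.20 (SD, n = 4) in Cd151+/+ and 4.54 ± 0.11 (SD, n = 4) in Cd151-/- mice. Lats2, the kinase whose gene is also a YAP target, had 4.72 ± 0.14 (SD, n = 4) and 4.76 ± 0.11 (SD, n = 4). Neither probe was above background in any mouse, so no fold is given.

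Over the 6 measured members, 3 had the higher mean in Cd151-/- mice and 3 the lower. Ankrd1, 1 of 6, was past an unadjusted p of 0.05 in the higher direction, against 1.69% of all probes, and 0 of 6 in the lower direction, against 2.61%. After Benjamini-Hochberg adjustment limma called 0 of 6, against 0.0334% of all probes. Genotypes that did not overlap were seen for 1 of 6 with Cd151-/- mice higher, against 0.855% of all probes, and for 0 of 6 with Cd151-/- mice lower, against 1.46%. These counts include the gene chosen for its difference, and nothing is read from them.

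Over the 8 arrays the Pearson correlation with the brighter Ankrd1 probe was -0.09 for Ctgf, 0.17 for Cyr61, -0.57 for Amotl2, -0.56 for Axl and -0.55 for Yap1. After the mean of each genotype was subtracted, Amotl2 and Yap1 varied most closely together (r = 0.93), followed by Ctgf with Axl (r = 0.78) and Axl with Yap1 (r = 0.77), while Cyr61 ran opposite to Amotl2 and to Yap1 (r = -0.69 for both). These correlations are over 8 mice that share array sets and a common normalisation, and they are given as a description.

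Among 11841 probes detected on at least 4 arrays, the patterns most like that of Ankrd1 over the 8 arrays were those of Cul4b, a ubiquitin ligase scaffold (r = 0.97), C130032J12Rik, now Mapk1ip1l (r = 0.94), Ctps, an enzyme of CTP synthesis (r = 0.93), the F-box gene Fbxo31 (r = 0.93) and Zfp128 (r = 0.93). The most opposite were Gpr43, now Ffar2, a receptor for short-chain fatty acids (r = -0.96), BC043301 (r = -0.96) and Evi1, now Mecom, a zinc finger transcription factor (r = -0.96). With genotype means subtracted the closest were Hoxb2 (r = 0.97), Lsm12 (r = 0.95), Ap2m1 (r = 0.92), Mrps17 (r = 0.90) and a second probe of Ctps (r = 0.90). The highest values out of so many probes and 8 arrays are a description of these mice.

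Of the other genes of the pathway 51 were listed, 42 had a probe and 33 had one detected on at least 1 array. These counts, and those of other pathway genes below, include Ankrd2 and Ankrd23, which are muscle relatives of Ankrd1. Ankrd23 is among the 33. Of these 33, 12 had the higher and 21 the lower mean in Cd151-/- mice, with a median difference of -0.09 against -0.01 for all probes tested. None of the 33 passed Benjamini-Hochberg adjustment in the limma fit (lowest adjusted p = 0.918), and at an unadjusted p under 0.05 there were 0 higher, against 1.69% of all probes, and 1 lower, Ajuba, against 2.61%. SAM called 91 probes over the whole array and 0 of these 33 genes.

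Ajuba encodes a LIM domain protein that binds LATS kinases and restrains them. Its log2 signals were 7.31, 6.76, 6.41 and 5.98 in Cd151+/+ mice and 5.45, 5.74, 5.95 and 5.82 in Cd151-/- mice. Every Cd151-/- mouse lay below every Cd151+/+ mouse, though Cd151-/- mouse 3 and Cd151+/+ mouse 4 were close. Of all probes 1.46% did not overlap in this direction. The probe was detected on all 8 arrays but was dim. Its bead signals in Cd151-/- mice 1 to 4 were 184, 197, 88.1 and 86.9, against array backgrounds of 135, 129, 69.5 and 68.8. The difference was -0.88 (SE 0.29, unadjusted p = 0.0108, limma adjusted p = 0.918), so Ajuba did not pass the adjustment. Without the background correction the difference was -0.43. Because the genotypes did not overlap, the exact permutation test could only give its smallest two-sided p, 0.0286 for 4 against 4 mice. That p adds nothing to the values above. A second Ajuba probe differed by -0.91 (SE 0.36).

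Of the Hippo kinases and upstream regulators 15 were measured, 3 with the higher and 12 with the lower mean in Cd151-/- mice, at a median of -0.16. The brightest of them were Wwc2, a relative of the scaffold KIBRA, at -0.09 (SE 0.29), and Rassf1, which binds the MST kinases, at -0.25 (SE 0.27). The MST kinase genes Stk3 and Stk4 differed by -0.03 (SE 0.20) and 0.01 (SE 0.29). Of the TEAD factors and their cofactors, 4 were measured and all 4 had the lower mean in Cd151-/- mice, at a median of -0.30, with Tead2 at -0.34 (SE 0.34) and Vgll4, which competes with YAP for TEAD, at -0.58 (SE 0.39). Beside Ajuba, none of these passed an unadjusted p of 0.05.

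By the brightest probe of each gene, the other YAP/TAZ target genes leaned the other way. Of 13 genes, 9 had the higher mean in Cd151-/- mice, at a median of 0.16, and none passed an unadjusted p of 0.05. A dimmer probe of Ccnd1, lower in Cd151-/- mice, and one of Nt5e, higher, did pass it and are given under other observations. The brightest of the 13 genes were Ccnd1, a cyclin of the G1 phase, at 0.10 (SE 0.19), and Gadd45a, induced by DNA damage, at 0.09 (SE 0.38). Thbs1, a matrix glycoprotein named here after its values were seen because its genotypes did not overlap, read 4.78, 5.14, 5.31 and 5.38 in Cd151+/+ mice and 5.45, 5.90, 5.38 and 5.76 in Cd151-/- mice (difference 0.47, SE 0.23, limma adjusted p = 0.918). Thbs1 was detected in 1 Cd151+/+ and 3 Cd151-/- mice and so was near background throughout. Of all probes 0.855% did not overlap in this direction. Birc5, an inhibitor of apoptosis expressed in dividing cells, had a difference of 1.10 with an SE of 0.62. Of the muscle ankyrin repeat relatives of Ankrd1, Ankrd23 differed by -0.14 (SE 0.29) and Ankrd2 was detected in no mouse.

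**Figure D4:**
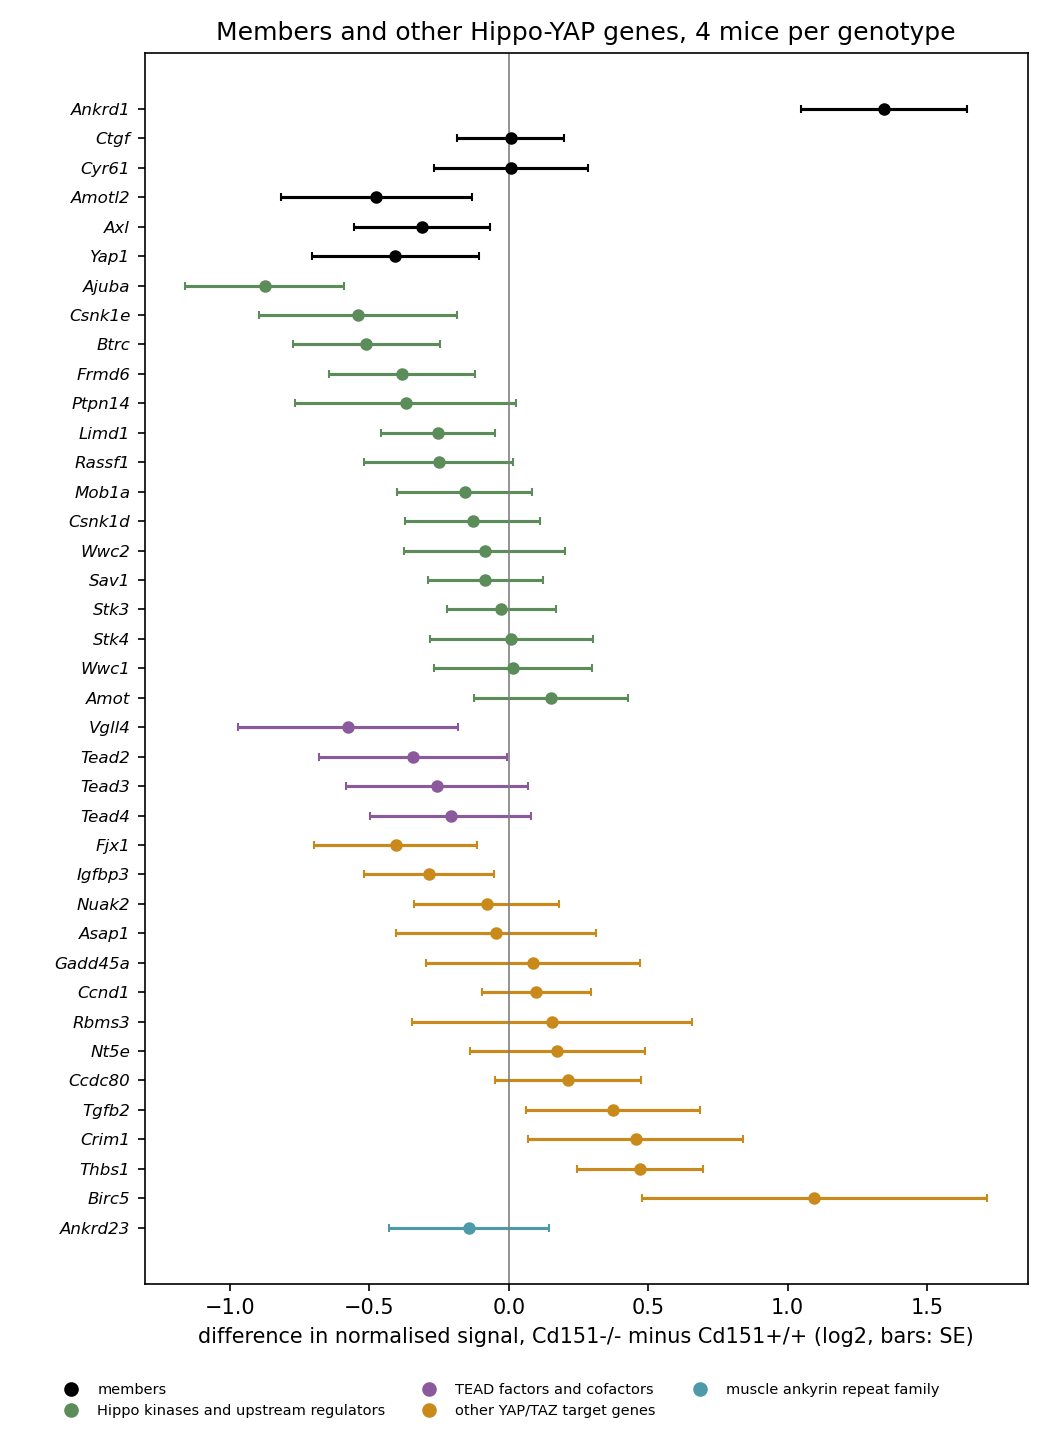
Difference in normalised signal between Cd151-/- and Cd151+/+ mice (log2, horizontal axis) for the 6 members and 33 other pathway genes, coloured by list, with bars for the SE. The 33 include Ankrd23, a muscle relative of Ankrd1. Ankrd1 stands at 1.35, Ajuba at -0.88 and Birc5 at 1.10 with the widest bar of the plot.

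Ctgf and Cyr61 also belong to the immediate early genes, which cells switch on within minutes of a stimulus, so the members were set against the mean signal of 9 detected immediate early genes. That mean was 11.57, 11.27, 11.43 and 12.02 in Cd151+/+ mice and 11.04, 12.07, 10.34 and 9.50 in Cd151-/- mice. All 9 had the lower mean in Cd151-/- mice, at a median of -0.97. They were also all lower on the arrays of lower background. On those of higher background Fos (0.61), Egr1 (0.12), Ier3 (0.07) and Dusp1 (0.02) were higher in Cd151-/- mice and the others lower. In limma 3 of the 9 were past an unadjusted p of 0.05, against 2.61% of all probes in the lower direction, and 0 passed the adjustment. Those 3 were Jun at -1.06, Junb at -1.48 and Zfp36 at -0.99. SAM called Jun and Junb lower, 2 of the 9, against 0.568% of all probes called lower. With genotype means subtracted, Cyr61 gave r = 0.52 and rho = 0.64 with the immediate early mean over 8 mice, at exact permutation p of 0.311 and 0.151 and adjusted p of 0.977 and 0.818. For Ankrd1 r was -0.02 and rho 0.05, at exact permutation p of 0.991 and 0.944 and adjusted p of 0.991 and 0.944. None of the 6 members tested passed, with r of 0.19 for Ctgf, -0.12 for Amotl2, 0.26 for Axl and -0.20 for Yap1, rho of -0.19, -0.07, 0.05 and -0.48, and adjusted exact permutation p from 0.818 to 0.991. The 2 mice farthest from the median of the immediate early mean, taken after genotype means were subtracted, were then left out. Without them r was 0.61 for Cyr61, 0.41 for Ankrd1, -0.79 for Ctgf, -0.63 for Amotl2, -0.76 for Axl and -0.83 for Yap1. The values for Ankrd1, Ctgf and Axl thus changed sign. The values for Ctgf and Axl also turned with the processing, from 0.69 and 0.67 under cubic spline normalisation to -0.60 and -0.19 under 75th percentile scaling, and to -0.68 and -0.45 without Cd151-/- mouse 4.

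The glomerular label was checked against cell type markers. The podocyte gene Podxl had a mean of 12.01 in Cd151+/+ and 11.70 in Cd151-/- mice and was detected in all 8, as was the endothelial gene Emcn. Tubule RNA was present in both genotypes. The proximal tubule markers had the higher mean in Cd151-/- mice for 4 of 4 genes. Their summed normalised signals, on the linear scale, were 12706 to 33662 in Cd151+/+ and 22738 to 39212 in Cd151-/- mice. On the arrays of lower background the differences of Slc34a1, Lrp2, Slc5a2 and Aqp1 were 0.93, 0.71, 1.44 and 0.87. On those of higher background they were 0.03, 0.11, -0.34 and 0.24. The 6 endothelial markers all had the lower mean, with sums of 33272 to 41618 and 21475 to 41695. The markers of the loop, distal tubule and collecting duct had the lower mean for 3 of 4 genes, at a median of -0.33, with sums of 22022 to 44037 and 15026 to 28332. Of 7 mesangial or smooth muscle markers, 6 had a probe and 5 were measured, 3 with the lower and 2 with the higher mean. Pdgfrb was the one past an unadjusted p of 0.05, at -0.74 (SE 0.32, limma adjusted p = 0.918), while Acta2 stood at 0.38 (SE 0.23) and Tagln at 0.45 (SE 0.32). Because Ankrd1 is best known from muscle, striated muscle markers were read too. Actc1, Acta1, Ckm, Tnni3 and Myl2 were detected in no mouse, and Myh6 and Mb, in at most 1 mouse of each genotype, summed to 60.5 to 93.4 in Cd151+/+ and 56.1 to 78.3 in Cd151-/- mice. Of the 7 striated muscle markers with a probe, 5 were thus undetected throughout. The cell source of the Ankrd1 RNA was not tested. The part of the marker differences in the members' values was not tested.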

How the data were processed

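Total RNA of 8 glomerular isolates was amplified, labelled with biotin and hybridised to Illumina MouseRef-8 v1.1 arrays, 1 mouse each. The authors deposited the bead signal intensity of 25697 probes, neither background-corrected nor normalised, and beside it a detection p-value per probe and array, which the authors' software (GenomeStudio) computes from negative controls. The study itself used cubic spline normalisation, which served here as an alternative.

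Groups came from the sample labels. In R 4.3.3, limma 3.58.1 applied neqc to the intensities (background inferred from the detection p-values, offset 16, quantile normalisation, log2). Probes detected on 1 array or more (detection p-value up to 0.05), 14967 in all, were fitted by genotype with lmFit and eBayes, and p-values were adjusted by Benjamini-Hochberg over all of them. SAM was written out in R over all 70 relabelings of the mice. Correlations with the immediate early mean used all 576 reorderings within genotypes. Each fit was checked on simulated data. Arrays detected 11291 to 12359 probes at a median signal 3.00 to 4.46 times background, and their number limits the precision. A bound for a probe undetected in 1 genotype was taken against the lowest detected signal on each of its arrays.

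The members, lists, marker genes and tests were chosen with earlier results of these data known. For a gene with several probes the brightest on average over the 8 arrays was used, and of each pathway list the genes past an unadjusted p of 0.05 and the 2 brightest were named. The gene table of assembly GRCm38.p6 held 17240 of the 18120 symbols. Promoter windows are those of RefSeq in the same build. Probe sequences were not used here. A gene of the marker lists is not reported here. Alternatives were other background corrections, normalisations, offsets, filters, variance models and probe choices, array weights, blocks for mouse number and array set, and each mouse left out. The test of array set was added after the data were seen.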

Additional observations from a re-analysis of the deposited data

How the results depend on the processing

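Ankrd1 was higher in Cd151-/- mice under all 22 alternatives, by 0.88 with the mean of both probes, 1.84 on the arrays of higher and 0.85 on those of lower background, and by 1.16 to 1.59 with a mouse left out. Amotl2, Axl and Yap1 had the lower mean under all 20 alternatives run for each. Ctgf differed by -0.15 after 75th percentile scaling and Cyr61 by 0.42 with array weights, where 3 members, Ankrd1, Amotl2 and Yap1, were past an unadjusted p of 0.05 in place of 1. With a mouse left out this count was 1 to 3. The count of other pathway genes past that threshold, 1 in the main setting, was 2 without a detection filter, 3 with array set as a block, 12 with array weights (4 higher, 8 lower) and 1 to 3 with a mouse left out, and after Benjamini-Hochberg adjustment it was 0 under all 21 alternatives. Array weights gave Cd151-/- mouse 1 a weight of 2.79 and Cd151-/- mouse 3 one of 0.47. The share of all probes past an unadjusted p of 0.05 with array weights is not given here. Nothing about the pathway is therefore read from the counts of 3 and 12 in that setting. The difference in Cyr61 between array sets ranged from 0.49 to 0.69 with a mouse left out and lost its call for 7 of 8. Same-numbered mice had r from -0.58 to -0.01 in 4 pairs. Each pair lay across both array sets, so these values cannot show whether the numbers mark pairs. With mouse number as a replicate block the count of members stayed at 1, the count of other pathway genes at 1 and the Ankrd1 difference at 1.35. The replicate block changed no call of the 6 members or of the 33 other pathway genes and was not run for the array sets or the marker genes. The number of arrays and, for the second Ankrd1 probe, Ajuba, Thbs1, Tead1 and Lats2, signal near background limited what could be seen. The causes of these shifts were not tested.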

Other observations

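Several pathway genes had further probes whose differences between genotypes varied. For Ccnd1, whose brightest probe differed by 0.10 (Cd151-/- minus Cd151+/+, log2), another probe differed by 0.21 and the third by -0.77 (SE 0.31). For Nt5e, the ectonucleotidase CD73, the brightest probe differed by 0.17 and the other by 0.70 (SE 0.30). The 3 probes of Birc5 differed by 1.10, 0.87 and 0.98, and the 3 of Tead4 by -0.21, -0.10 and -0.34. Both probes of Ajuba and both of Csnk1e, at -0.54 and -0.53, had the lower mean in Cd151-/- mice.

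Of the immediate early genes, 4 differed between the array sets after adjustment over all probes in the limma fit that held genotype, each higher on the arrays of higher background: Fos by 2.44, Fosb by 2.01, Egr1 by 2.01 and Dusp1 by 1.28. Among the other YAP/TAZ target genes Rbms3, an RNA-binding protein, differed in the same direction by 1.43 (SE 0.24), while the kinase gene Stk4 differed by -0.71 (SE 0.17). Of the 33 other pathway genes 7 passed for array set, against 23.9% of all probes, as did 4 of the 9 immediate early genes. The podocyte transcription factor gene Wt1 was higher on the same arrays by 1.85 (SE 0.26). What the sets share was not tested.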
